A study of Mus musculus with 43 samples.

Results

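The nuclear genes of oxidative phosphorylation were followed through the reprogramming of mouse fibroblasts to induced pluripotent stem cells (iPSC). Members were chosen by gene symbol alone: names of the Nduf, Uqcr, Cox4 to Cox8 and Atp5 series, cytochrome c1 (Cyc1) and the 4 succinate dehydrogenase genes (Sdha to Sdhd), without pseudogene symbols. The rule found 86 of the 38983 genes shared by all 5 deposited tables. By name, 38 belong to complex I, 4 to complex II, 9 to complex III, 17 to complex IV and 18 to complex V. Cox4i1, the common form of its subunit, was not analysed here.

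These complexes sit in the inner mitochondrial membrane. Complexes I and II pass electrons from NADH and succinate to ubiquinone, complex III passes them to cytochrome c, and complex IV reduces oxygen. Complexes I, III and IV pump protons, and complex V, the ATP synthase, uses the gradient to make ATP. Pluripotent stem cells are known for strong glycolysis with a largely immature mitochondrial network. RNA levels, as read here, do not measure respiration or glycolysis. Several complex IV subunits exist in alternative forms, for muscle, testis or low oxygen, encoded by separate genes. A few names mislead: Ndufa4 protein is now placed in complex IV, Atp5s and Atp5sl do not encode core subunits of the ATP synthase, Cox7a2l encodes a factor that links complexes III and IV, and Atp5l2 is a processed pseudogene in RefSeq.

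The study followed 4 systems of secondary mouse embryonic fibroblasts (MEF), made from mice derived from reprogrammed cells, with a doxycycline-inducible cassette of Oct4, Klf4, Sox2 and Myc (OKSM). Of these systems, Mbd3f/- (11 libraries) and Gatad2a-/- (10 libraries) are called depleted here, since each carries a disrupted gene for a subunit of the NuRD chromatin complex. WT-1 (7 libraries) and WT-2 (6 libraries) are wild type, and WT-2 is isogenic to Gatad2a-/-. Cells of days 1 to 8 were treated with doxycycline in serum and LIF at 5% oxygen. Inhibitors of MEK and GSK3 came later (day 3.5 by the design text, 48 hours by the growth protocol). For MEF, iPSC and ES no oxygen level was recorded here. Depleted systems were sampled daily to day 8 and WT systems on days 2, 4, 6 and 8; established iPSC lines had at least 3 passages, and embryonic stem cells (ES) were Mbd3f/- or WT V6.5. Cells of days 3 to 8, iPSC and ES grew on irradiated human fibroblasts. Medium and feeder cells thus changed along the course, and they cannot be told apart from the progress of reprogramming. The fifth table holds 9 libraries of Myc experiments, all from Mbd3f/- cells. Those labelled si-Scramble (MEF and day 7) and OSK alone (day 4) carry no Myc perturbation by their labels.

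A system has 1 library at a stage, and n therefore counts systems: 2 depleted, 2 WT or 4 in all. Separate cultures are not mentioned in the labels, and the p-values reflect only how these samples vary, which may be technical variation. All values are FPKM, a level scaled to transcript length and to the reads of the library, and read depth is unknown. Changes are differences of log2(FPKM + 1) with their standard error from limma, which understate the change of low genes. A gene rose or fell when its Benjamini-Hochberg adjusted p over all genes tested was below 0.05. Shares of all genes are given for such calls only. Counts at unadjusted p have no such share beside them and are not read as results about the members. Of the 86 members, 84 reached an FPKM of 1 in at least 2 libraries and were tested; Cox8b stayed at or below 0.378 and Cox8c at or below 1.30.

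All 37 mitochondrially encoded genes are listed at 0 in every library, so the partner subunits encoded there cannot be read. Fibroblast markers (10 genes) summed to 2633 to 7699 FPKM in the MEF of the 4 systems. They summed to 39.7 and 171 at day 8 in the depleted systems but 4695 and 9861 in WT-1 and WT-2. All 8 pluripotent cell markers reached an FPKM of 1 in every iPSC and ES library. At day 8 they summed to 3600 and 2318 in the depleted systems, 149 in WT-1 and 2.25 in WT-2, so the WT libraries of day 8 remained fibroblast by these markers. In bulk samples, fewer cells of a type and less RNA per cell cannot be told apart. RNA of the targeted genes does not check the labels, which do not give the deleted part: Gatad2a was 8.59 to 14.7 in Gatad2a-/- libraries and 9.17 to 38.5 in WT-2, and Mbd3 was 36.3 to 96.5 in Mbd3f/- libraries and 75.3 to 117 in WT-1.

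Promoter sequences are printed here because most members moved together. RefSeq promoters (GRCm38.p6; 250 bases before to 50 after the start) matched 70 of 86 members by symbol. Motifs known from respiratory genes were searched on both strands. Letters of the NRF1 core GCATGC were in 12 of 70 (17.1%), against 7.94% of all 27025 promoters. The GABP motif CCGGAAG was in 15 (21.4%, against 9.12%) and the YY1 motif AAGATGGC in 10 (14.3%, against 2.88%), of which 7 were among the 33 complex I promoters. The ERR motif AAGGTCA was in 8 (11.4%, against 4.66%) and the Myc-type E-box CACGTG in 7 (10.0%, against 7.24%), of which 5 were among the 16 complex V promoters. NRF1, GABP and ERR factors are known regulators of respiratory genes. A match is a description of letters, not a bound site, and these motifs do not overlap one another in the stretches below.

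The following 5 stretches, chosen after the values were seen, run from 170 bases before to 3 after the start, 5′ to 3′ on the gene's strand, with motifs in capitals. Uqcr11 (chr10:80406819-80406991, minus strand), which rose by day 1, holds CCGGAAG and GCATGC. Cox6a1 (chr5:115348956-115349128, minus strand), the common form of its subunit, holds GCATGC and CTTCCGG, the reverse complement of the GABP motif. Atp5g3 (chr2:73911324-73911496, minus strand), which rose by day 1 and fell later, holds TGACCTT, the reverse complement of the ERR motif. Its full promoter also holds the E-box, outside this stretch. Cox7a1 (chr7:30184001-30184173, plus strand) and Cox7b2 (chr5:71548203-71548375, minus strand), which were highest late, hold none of the motifs in these stretches. Of other members that rose by day 1, Ndufb6 and Sdhd have the GABP motif in their promoters. Ndufab1, Uqcrfs1, Cox5a, Cox5b and Cox7c have none of the motifs. Whether a motif goes with the time of a rise was not tested.
Uqcr11: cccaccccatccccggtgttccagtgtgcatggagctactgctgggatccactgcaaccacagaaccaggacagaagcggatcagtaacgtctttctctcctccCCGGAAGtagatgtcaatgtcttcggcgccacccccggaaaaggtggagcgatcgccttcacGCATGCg
Cox6a1: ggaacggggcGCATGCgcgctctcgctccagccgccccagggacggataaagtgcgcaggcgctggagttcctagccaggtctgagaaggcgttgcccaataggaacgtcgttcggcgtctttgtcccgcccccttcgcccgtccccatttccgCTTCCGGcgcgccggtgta
Atp5g3: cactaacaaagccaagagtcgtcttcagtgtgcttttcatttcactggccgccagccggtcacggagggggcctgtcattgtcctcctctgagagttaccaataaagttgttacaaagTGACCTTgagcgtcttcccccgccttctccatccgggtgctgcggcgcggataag
Cox7a1: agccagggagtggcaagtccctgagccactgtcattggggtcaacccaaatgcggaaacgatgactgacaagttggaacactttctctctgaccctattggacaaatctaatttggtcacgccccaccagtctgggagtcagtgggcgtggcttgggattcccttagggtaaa
Cox7b2: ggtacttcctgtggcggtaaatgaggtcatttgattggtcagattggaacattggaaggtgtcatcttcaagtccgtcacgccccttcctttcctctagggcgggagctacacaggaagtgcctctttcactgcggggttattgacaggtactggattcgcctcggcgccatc

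Do established iPSC carry more of these transcripts than the fibroblasts they came from? Over the 4 systems, 72 of the 84 members tested rose and 2 fell, against 29.0% and 23.9% of all 20305 genes tested. The members' median change was 0.90, against 0.14 over all genes. By complex, 33 of 38 rose in complex I, 2 of 4 in II, 9 of 9 in III, 12 of 15 in IV and 16 of 18 in V, with medians of 0.78, 0.50, 1.16, 1.27 and 1.03. The direction held in all 4 systems for 69 of the 72 and in 3 systems for Uqcrh, Atp5l and Atp5l2. After quantile normalization 58 rose and 3 fell (28.0% and 24.3% of all genes), with a median of 0.60. Markers of other cells moved with this comparison: all 10 fibroblast markers fell (median change -5.61), as did 4 of 6 macrophage markers (median -3.86; their sum in WT-2 was 4082 FPKM in MEF and 102 in iPSC) and 5 of 7 muscle and heart markers (median -1.21). Their part in it was not tested.

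**Figure D1:**
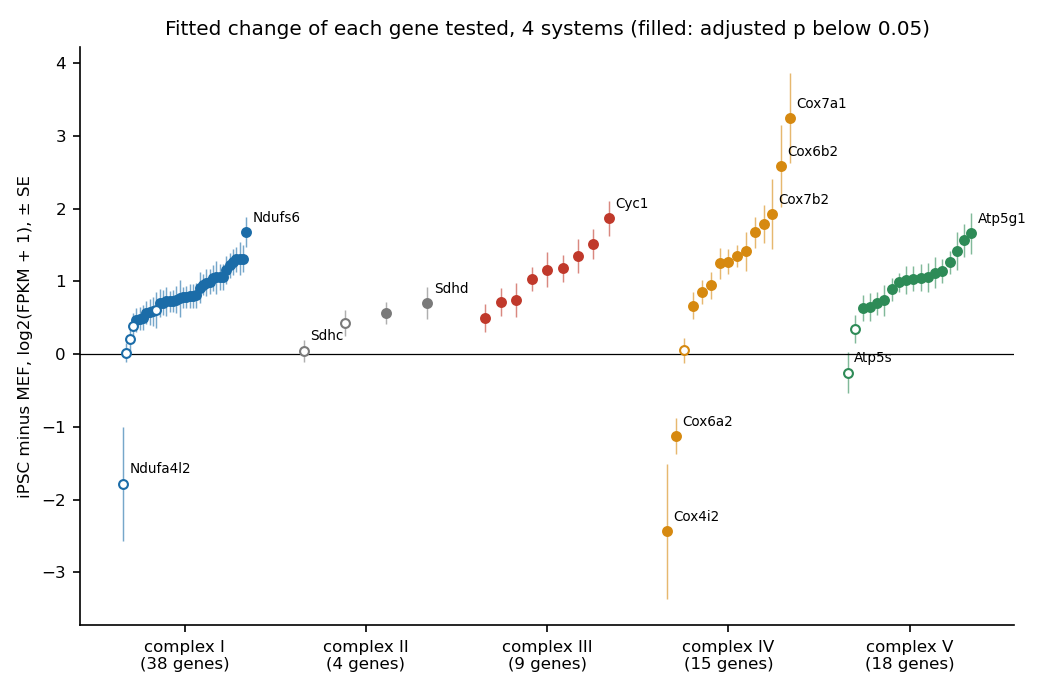
Fitted change from MEF to iPSC over 4 systems in log2(FPKM + 1), with SE bars, for the 84 genes tested, sorted within each complex; filled points passed an adjusted p of 0.05. All 9 genes of complex III lie above 0, while complex IV holds both the highest point, Cox7a1 at 3.25, and the lowest, Cox4i2 at -2.44.

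Cyc1, the heme-bearing cytochrome of complex III that hands electrons to cytochrome c, lies on chromosome 15 (76343523 to 76346260, GRCm38). Its level was 70.9, 56.3, 77.0 and 47.9 FPKM in the MEF of Mbd3f/-, Gatad2a-/-, WT-1 and WT-2 and 230, 136, 337 and 260 in their iPSC. The groups do not overlap, and the change was 1.87 ± 0.24 (adjusted p = 2.55e-05, limma, higher in 4 of 4 systems). The Rieske protein gene Uqcrfs1 rose by 0.72 ± 0.19 and the core genes Uqcrc1 and Uqcrc2 by 1.16 ± 0.24 and 0.74 ± 0.23. Uqcrh, the hinge protein that docks cytochrome c, changed least in its complex (0.50 ± 0.19, adjusted p = 0.0421, limma); without WT-1, Gatad2a-/- or WT-2 its adjusted p was 0.131 to 0.201.

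In complex I, the largest rise was in Ndufs6, a small subunit of the electron input arm, at 1.68 ± 0.20 (adjusted p = 1.62e-05, limma). Its FPKM was 45.3, 47.4, 39.0 and 28.7 in the MEF and 103, 162, 123 and 131 in the iPSC, in the order of systems above. Of the catalytic core, Ndufv1, which binds NADH, rose by 1.30 ± 0.17 and Ndufs1 by 0.80 ± 0.17. The 5 that did not pass were Ndufa2 at 0.02, Ndufa8 at 0.21, Ndufa13 at 0.39, Ndufv3 at 0.61 and Ndufa4l2 at -1.78 ± 0.79 (adjusted p = 0.0735, limma).

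Complex II, which also works in the citric acid cycle, had the smallest median. Sdhd, a membrane anchor, rose by 0.70 ± 0.23 (adjusted p = 0.0176, limma) and the flavoprotein gene Sdha by 0.57 ± 0.15 (adjusted p = 0.00651, limma). Both calls were lost when single systems were left out: Sdhd had an adjusted p of 0.0692 without Mbd3f/-, 0.0753 without WT-1 and 0.0824 without Gatad2a-/-, and Sdha 0.0603 without WT-2. Sdhb stood at 0.43 (adjusted p = 0.0509, limma) and Sdhc at 0.05. Sdhc was 102, 52.7, 83.3 and 106 FPKM in MEF and 93.1, 50.4, 76.3 and 152 in iPSC, so its groups overlap.

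In complex IV, Cox5a, a ubiquitous structural subunit, rose by 1.68 ± 0.21 (adjusted p = 2.36e-05, limma) and Cox7c by 1.79 ± 0.26. In complex V, the rotor ring gene Atp5g1 rose by 1.66 ± 0.28 and the catalytic beta subunit Atp5b by 1.56 ± 0.23 (adjusted p = 7.66e-05, limma). Atp5b was among the most abundant members, at 494, 404, 758 and 380 FPKM in MEF and 1117, 672, 3346 and 1752 in iPSC. Every iPSC library of Atp5b exceeded the MEF library of its own system, while the iPSC of Gatad2a-/- stayed below the MEF of WT-1. Atp5a1, the alpha subunit, rose by 1.15 ± 0.17, and Atp5d (0.35) and Atp5s (-0.26) did not pass. Atp5l and Atp5l2 share near-identical sequence, so their split of reads is uncertain.

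The size of the rise differed in value between classes: the members' median was 0.52 in Mbd3f/-, 0.53 in Gatad2a-/-, 1.24 in WT-1 and 1.29 in WT-2. Tested gene by gene, 0 of 84 differed between depleted and WT systems in limma after adjustment, against 0.310% of all genes. At an unadjusted p under 0.05, 29 members were lower and 0 higher in the depleted systems. The share of all genes at that threshold is not given, so this count is not read as a result about the members. Without either depleted system 1 member passed.

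When in the course does the rise occur? In the depleted systems it was present on the first day. From MEF to day 1, 35 of 84 members rose and 2 fell, against 14.1% and 9.0% of all 20198 genes, with a median of 0.54 against 0.03 for all genes. By complex, 17 of 38 rose in I, 2 of 4 in II, 6 of 9 in III, 3 of 15 in IV and 7 of 18 in V, and complex III had the highest median (1.00). After quantile normalization 13 rose and 5 fell, with a median of 0.25, against 11.5% and 10.2% of all genes. In the same libraries the fibroblast marker sum went from 7699 to 742 FPKM in Mbd3f/- and from 4081 to 869 in Gatad2a-/-, and 6 of 7 muscle and heart markers fell. The part of these in the result was not tested. All comparisons of a day with MEF share the 1 MEF library of each system.

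**Figure D2:**
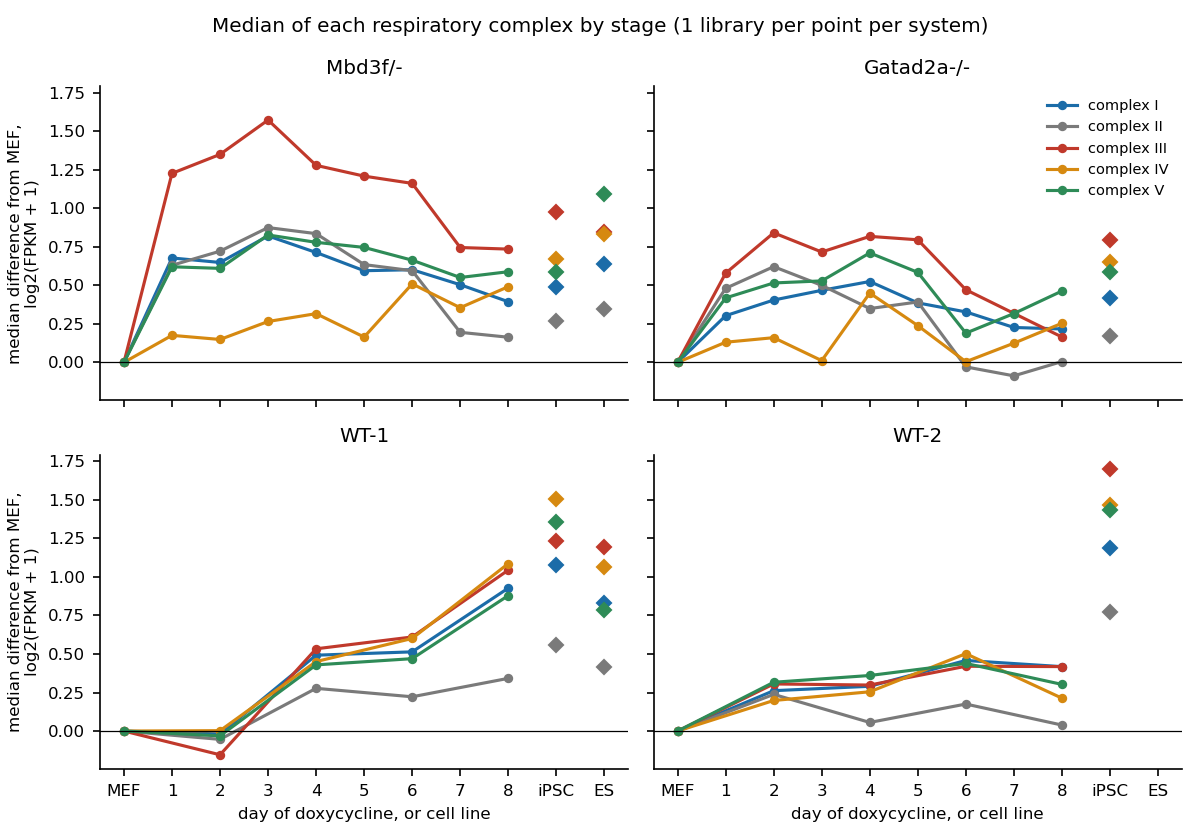
Median difference from the MEF library in log2(FPKM + 1), over all genes of each complex, by day of doxycycline (circles, joined) and in iPSC and ES (diamonds), 1 library per stage of each system. In Mbd3f/- complex III stands at 1.23 on day 1 and 1.57 on day 3 and returns to 0.73 by day 8, whereas in WT-1 it climbs to 1.04 by day 8 and in WT-2 it stays at 0.30 to 0.42 until the iPSC line.

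Ndufb6, an accessory subunit of the membrane arm of complex I, had the largest day 1 rise at 1.43 ± 0.24 (adjusted p = 0.0016, limma, 2 of 2 systems). It went from 101 to 321 FPKM in Mbd3f/- and from 45.9 to 107 in Gatad2a-/-, and stood at 134 and 56.9 on day 8. Atp5g3, a rotor ring gene of complex V, rose by 1.36 ± 0.24 (adjusted p = 0.00175, limma), from 311 to 1020 FPKM and from 165 to 336. In both genes each day 1 library lay above the MEF library of its system. Cyc1 rose by 1.29 ± 0.26 (adjusted p = 0.00449, limma): 70.9 to 251 FPKM in Mbd3f/- and 56.3 to 96.8 in Gatad2a-/-. Further day 1 rises were Uqcr11 at 1.13 ± 0.28, whose promoter is printed above, Ndufab1, the acyl carrier protein of complex I, at 1.12 ± 0.19, Uqcrfs1 at 1.09 ± 0.19 and Sdhd at 0.97 ± 0.24. In complex IV the rises were Cox5a at 0.87 ± 0.25, Cox7c at 0.86 ± 0.23 and Cox5b at 0.84 ± 0.26. The 2 that fell were Ndufa4l2 at -3.65 ± 1.04 (adjusted p = 0.0257, limma) and Cox6a2, with a fitted difference of -1.42. Cox6a2 was at 2.17 and 2.41 FPKM in the MEF of Mbd3f/- and Gatad2a-/-. These libraries, where it is higher, helped bring it past the filter, so its call is no support.

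No further change passed up to day 4. From day 1 to day 3, 0 of 84 passed in limma (2 higher and 0 lower at unadjusted p under 0.05; 2.05% of all genes passed), and from day 3 to day 4 again 0 (0 either way at unadjusted p; 0% of all genes). Against MEF, 21 rose and 2 fell at day 2 (9.97% and 8.19% of all genes), and 37 rose and 1 fell at day 4 (13.1% and 15.5%). At day 6, 15 rose and 2 fell (16.5% and 16.1%), and at day 8, 16 rose and 1 fell (19.0% and 15.3%). On both of these days the rises were near the share of all genes and the falls were fewer. The medians were 0.54, 0.66, 0.43 and 0.35, and 0.28, 0.38, 0.23 and 0.19 after quantile normalization. With that scaling 12, 19, 10 and 12 rose, against 9.62%, 15.3%, 17.8% and 17.3% of all genes, so that at days 6 and 8 the rises were a smaller share of members than of all genes. These counts rest on having both systems. Without Mbd3f/- the members passing numbered 0, 1, 3 and 4 at days 2, 4, 6 and 8, and without Gatad2a-/- 9, 9, 6 and 4. The largest rises at day 4 were Cyc1 at 1.49 ± 0.34 and Ndufs6 at 1.44 ± 0.29. Among all days of the course, the highest library was one of days 1 to 4 for 56 of 83 members in Mbd3f/- and 50 of 83 in Gatad2a-/-. In complex I of Gatad2a-/- it was so for 20 members, against 18 on days 5 to 8. The share of all genes was not computed, so this is not read as a result about the members.

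From day 4 to day 8 more members fell than rose: 3 rose and 14 fell, against 9.23% and 4.48% of all genes, and the median was -0.35 against 0.07 over all genes. The members that fell were 6 of complex I (Ndufa12, Ndufa8, Ndufa10, Ndufs7, Ndufab1 and Ndufa4), Sdhd, 3 of complex III (Uqcrq, Uqcrh and Uqcrfs1) and 4 of complex V (Atp5g3, Atp5l, Atp5k and Atp5e). Atp5g3 fell by 1.21 ± 0.24 (adjusted p = 0.00603, limma), from 885 to 394 FPKM in Mbd3f/- and from 342 to 143 in Gatad2a-/-. At day 8 it stood at 394 against 311 in the MEF of Mbd3f/-, and at 143 against 165 in Gatad2a-/-. Uqcrq, a small subunit of complex III, fell by 1.20 ± 0.36 and Ndufa12 by 0.89 ± 0.18. Of the 35 members that rose at day 1, 10 fell from day 4 to day 8 (28.6% of the first list, 71.4% of the second). Values below 0 were held by 33 of the 35, by 65 of all 84 and by 44.3% of all genes. Matching shares among all genes that rose at day 1 were not computed. The 10 and the 33 are therefore not read as results about the members.

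The split depends on scaling. Over all genes, 67.3% of calls from day 4 to day 8 were rises, against 50.6% after quantile normalization, which moved the median of all genes by -0.12. With that scaling 3 members rose and 5 fell, near the 5.85% and 5.71% of all genes, and the members' median was -0.19. From day 8 to the iPSC line 0 members passed in the depleted systems in limma (3 higher and 2 lower at unadjusted p; 0.566% of all genes), with a median of 0.15. Without Mbd3f/- 4 passed.

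**Figure D3:**
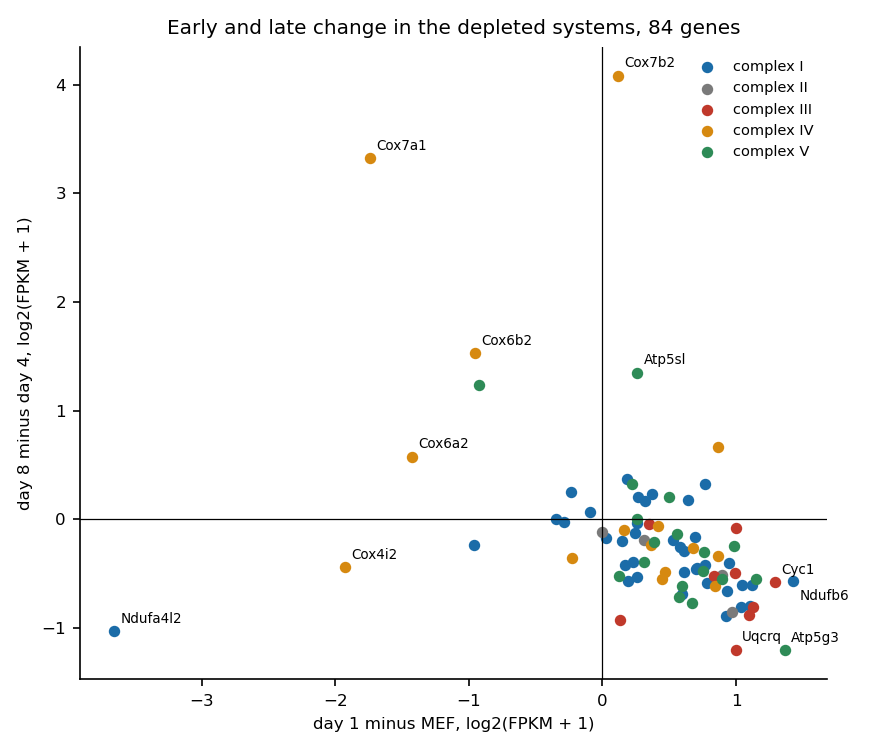
Fitted change from MEF to day 1 (horizontal) against that from day 4 to day 8 (vertical), both in log2(FPKM + 1), for 84 genes in the depleted systems. Most genes lie to the right of 0 and below it, as Atp5g3 does at 1.36 and -1.21, while Cox7a1 and Cox7b2 stand alone at the top, at 3.32 and 4.08.

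The WT systems had no early rise that passed. In limma 0 of 84 members passed against MEF at day 2 (0 at unadjusted p; 0% of all genes), at day 4 (11 higher and 0 lower at unadjusted p; 0.00985%) and at day 6 (33 higher and 2 lower; 0.158%). The medians were 0.13, 0.38 and 0.50. At day 8, 4 rose and 0 fell, against 0.438% and 0.719% of all genes, and 49 were higher at unadjusted p. These were Ndufa4 at 1.17 ± 0.24 (adjusted p = 0.0378, limma), Uqcr11 at 1.20 ± 0.26, Cox6c at 1.04 ± 0.21 and Atp5e, the epsilon subunit of complex V, at 1.13 ± 0.22 (adjusted p = 0.0293, limma). The count was 0 without Mbd3f/-, without WT-1 or without Gatad2a-/-. The 2 systems differed in value, with a median of 0.96 in WT-1 and 0.35 in WT-2. Of the induced factors, RNA of Pou5f1, the Oct4 gene, and of Sox2 was low in WT-2. Pou5f1 was 0, 0, 0.092 and 0.832 FPKM on days 2, 4, 6 and 8. Sox2 was 0.275, 0.237, 0.429 and 0.265 on these days. Klf4 was 14.4, 14.8, 23.9 and 20.6 there, against 8.58 in MEF. Myc was 24.9, 6.15, 6.47 and 6.17, against 19.6 in MEF. In WT-1 Pou5f1 was 2.45 and Sox2 0.0609 on day 2, and 79.1 and 6.93 on day 4. On day 1 Sox2 was 90.5 in Gatad2a-/- and 9.03 in Mbd3f/-. How far the cassette was induced was not tested.

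From day 8 to the iPSC line more of the WT members passed: 30 of 84 rose and 0 fell, against 19.6% and 15.7% of all genes, with a median of 0.62. Without WT-2 the count was 0, and the median was 0.27 in WT-1 alone. After quantile normalization 12 rose and 1 fell, with a median of 0.34, and the rises were then a smaller share of members than the 18.8% of all genes. In the same step all 10 fibroblast markers fell (median -5.52) and all 8 pluripotent cell markers rose (median 5.78), and the macrophage marker sum in WT-2 went from 4816 to 102 FPKM; their part was not tested. Cyc1 rose by 1.62 ± 0.34 (adjusted p = 0.00246, limma), from 174 to 337 FPKM in WT-1 and from 52.4 to 260 in WT-2. Cox7c rose by 1.77 ± 0.36, Cox5a by 1.67 ± 0.30 and Atp5b by 1.43 ± 0.32. By complex, 10 of 38 rose in I, 0 of 4 in II, 4 of 9 in III, 6 of 15 in IV and 10 of 18 in V.

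Tested directly, the day 2 change differed between depleted and WT systems for 0 members in limma (14 higher and 2 lower in the depleted at unadjusted p; 2.43% of all genes). At Cyc1 the difference was 1.36 ± 0.48 (adjusted p = 0.139, limma) and at Ndufs1 1.17 ± 0.34 (adjusted p = 0.0861, limma). At day 8, 1 member was higher and 3 lower in the depleted systems, against 8.40% and 7.73% of all genes. The higher one was Cox7b2 at 4.04, which was tested only because late depleted, iPSC and ES libraries brought it past the filter, so its call supports nothing. Uqcrh differed by -1.38 ± 0.39 (adjusted p = 0.0279, limma), Ndufa2 by -0.94 ± 0.26 and Atp5e by -1.07 ± 0.30. The count was 7 without Mbd3f/-, 0 without WT-1, 1 without Gatad2a-/- and 1 without WT-2. Uqcrh went from 405 to 836 FPKM in WT-1 and from 158 to 246 in WT-2 between MEF and day 8, but from 348 to 298 in Mbd3f/- and from 616 to 339 in Gatad2a-/-. It thus lay above MEF in both WT systems and below it in both depleted ones.

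From MEF to iPSC both the largest rise and the largest fall among members were in alternative forms of complex IV subunits, Cox7a1 and Cox4i2. Cox7a1, the heart and muscle form (chromosome 7, 30184144 to 30186078), rose by 3.25 ± 0.61 from MEF to iPSC (adjusted p = 0.000595, limma, 4 of 4 systems), with an adjusted p of 0.0503 without Mbd3f/-. Its level in Mbd3f/- was 12.5 FPKM in MEF, between 1.48 and 4.14 on days 1 to 5, 18.5, 92.7 and 84.7 on days 6 to 8 and 115 in the iPSC line. The Gatad2a-/- libraries held 6.14 in MEF, 1.08 at its lowest on day 3, 25.8 on day 8 and 33.6 in iPSC. From day 4 to day 8 in these systems it rose by 3.32 ± 0.59 (adjusted p = 0.00342, limma). WT-1 held 1.60, 1.66, 12.4, 14.9, 19.3 and 75.3 FPKM and WT-2 9.79, 14.5, 25.9, 5.63, 5.23 and 71.2 at MEF, days 2, 4, 6 and 8 and iPSC. Muscle and heart markers (10 genes) summed to 156 FPKM in MEF, 7.64 on day 3 and 7.58 on day 8 in Mbd3f/-, to 144, 13.6 and 10.7 in Gatad2a-/-, and to 3.81 in MEF and 7.05 in iPSC of WT-1; their part was not tested. The common form Cox7a2 was 110 and 45.9 FPKM in the depleted MEF and 176 and 78.8 in their iPSC.

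Cox7b2, an alternative to Cox7b (chromosome 5, 71442824 to 71548205), was at or below 0.205 FPKM up to day 5 in both depleted systems. It reached 1.06, 8.70 and 23.0 on days 6 to 8 in Mbd3f/-, and 1.05, 1.59 and 11.7 in Gatad2a-/-. It was listed at 0 at day 8 in both WT systems, so only late depleted, iPSC and ES libraries brought it past the filter. Its fitted difference from day 4 to day 8 was 4.08, and its calls are no support, since the libraries that let it be tested are those in which it is high. In iPSC it stood at 22.0 in Mbd3f/-, 0.682 in Gatad2a-/-, 1.43 in WT-1 and 1.5 in WT-2, so the Gatad2a-/- level at day 8 was not kept in that line. The fitted difference from MEF to iPSC was 1.93. It is 1 of the members counted above as rising in these comparisons and at day 8 in the depleted systems. The sum of germ cell markers (7 genes) also went up, to 23.8 and 59.3 FPKM at day 8 in Mbd3f/- and Gatad2a-/-. It was 0.543 and 1.14 in WT-1 and WT-2, and 25.4 to 86.2 in iPSC. Only 3 of the 7 reached an FPKM of 1 at day 8 in each depleted system, and 4 in each iPSC line. Single genes made up much of some sums: Cyct, the testis cytochrome c, was 41.9 at day 8 in Gatad2a-/-, and Dazl 56.6 in Mbd3f/- iPSC. The part of these markers was not tested.

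Cox6b2, the testis form of Cox6b, rose by 2.59 ± 0.57 (adjusted p = 0.00174, limma, 4 of 4 systems). It was 114, 61.3, 7.44 and 18.4 FPKM in MEF and 268, 268, 104 and 199 in iPSC of Mbd3f/-, Gatad2a-/-, WT-1 and WT-2. The MEF of Mbd3f/- lay above the iPSC of WT-1, so the groups overlap. At day 8 in WT cells it stood at 181 and 121 FPKM, a change of 3.54 ± 0.80 that did not pass (adjusted p = 0.0536, limma). The common form Cox6b1 remained higher, at 453 to 1038 FPKM in iPSC.

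Cox4i2 and Cox6a2, the muscle form of Cox6a, were called as falling from MEF to iPSC over the 4 systems. Cox4i2 and Ndufa4l2 are both known to be induced at low oxygen. Oxygen was recorded for the days of the course only, so its part between MEF and iPSC was not tested. Cox4i2 (chromosome 2, 152754173 to 152765037) was 84.5, 3.95, 0.745 and 91.2 FPKM in MEF and 1.13, 2.25, 1.70 and 3.22 in iPSC. Its fall of 2.44 ± 0.93 (adjusted p = 0.0403, limma) came from systems with a higher MEF, while in WT-1 the iPSC library was above its MEF, and the adjusted p was 0.500 without Mbd3f/- and 0.30 without WT-2. Ndufa4l2 (chromosome 10, 127514967 to 127517154) ranged from 203 FPKM in the MEF of Mbd3f/- to 5.26 on day 1, 92.8 on day 4 and 8.04 in iPSC. The WT-2 course held 475 FPKM in MEF, 537 on day 4, 12.8 on day 6 and 98.6 in the line. These swings follow no single direction. Cox6a2 was at 2.17, 2.41, 0.601 and 1.74 FPKM in MEF and 0.703, 0.176, 0.0484 and 0 in iPSC, a fitted difference of -1.12. Every iPSC value of Cox6a2 lay below the filter's FPKM of 1. MEF libraries, where it is higher, helped bring it past the filter, so its calls are no support. Cox6a1 stood at 281 to 994 in iPSC.

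**Figure D4:**
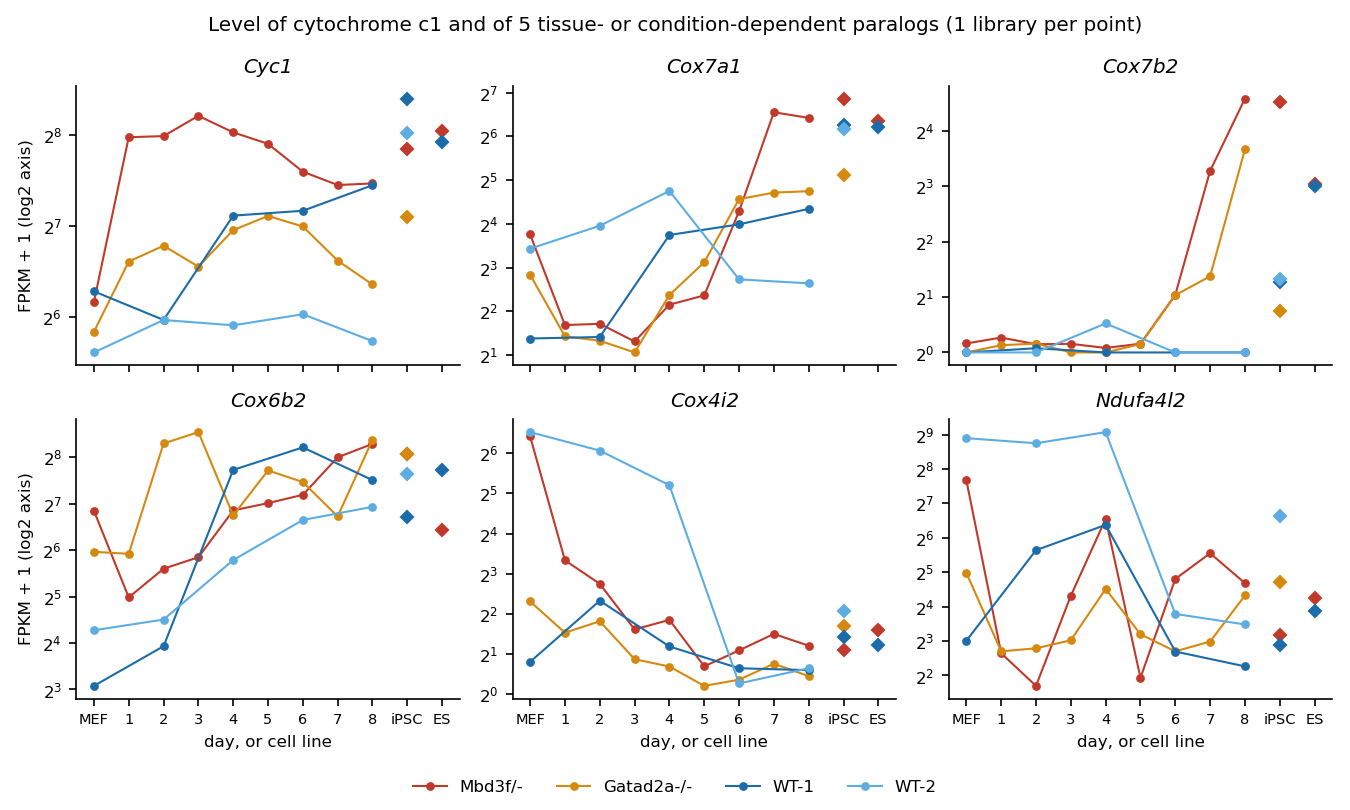
FPKM + 1 on a log2 axis of Cyc1, Cox7a1, Cox7b2, Cox6b2, Cox4i2 and Ndufa4l2 by day (circles, joined) and in iPSC and ES (diamonds), 1 library per point, coloured by system. Cyc1 is up on day 1 in the depleted systems, Cox7a1 and Cox7b2 in Mbd3f/- come up after day 5, reaching 84.7 and 23.0 FPKM on day 8, whereas Cox7a1 in WT-1 and WT-2 is already at 12.4 and 25.9 on day 4, and Cox4i2 starts high in Mbd3f/- and WT-2 only.

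Other lists of mitochondrial genes were read by counts alone, beside the 29.0% of all genes that rose and 23.9% that fell from MEF to iPSC. From MEF to iPSC, 61 of 76 mitochondrial ribosomal protein genes rose and 0 fell (median 1.12; highest Mrpl15 at 2.25 and Mrpl49 at 2.07). Of 42 assembly factor genes 22 rose and 2 fell, led by Ecsit at 1.90 and Ndufaf6 at 1.76, with Tmem70 at -0.82 and Cox19 at -0.61. Of 17 regulators of mitochondrial gene expression 13 rose and 0 fell, with Tfam, which packages mitochondrial DNA, at 1.91 ± 0.27 and Nrf1 at 1.84 ± 0.15. Of 13 citric acid cycle genes 9 rose, and of 17 genes for pyruvate entry, nucleotide exchange and uncoupling 5 rose (Pdhb at 1.87, Slc25a5 at 1.51) and 4 fell (Pdk2 at -1.25, Slc25a4 at -1.17). Cytochrome c is encoded by Cycs and, in testis, Cyct: the fitted difference of Cyct was 4.43, no support as a call since late, iPSC and ES libraries brought it past the filter. The pyruvate and exchange list thus had shares near those of all genes.

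On day 1 in the depleted systems, 59 of 76 ribosomal protein genes rose and 0 fell, against 14.1% and 9.0% of all genes (Mrpl12 at 2.2, Mrpl47 at 1.90). Assembly factors rose in 22 and fell in 1 of 42 (Ndufaf4 at 2.46, Sco2 at 1.97 and Cox20 at -1.29). Of the citric acid cycle genes 11 of 13 rose (Idh3a at 1.87, Mdh2 at 1.12), and Cycs rose by 2.06. Esrra, a nuclear receptor that binds the ERR motif, rose by 1.85 ± 0.31 (adjusted p = 0.00139, limma), from 13.4 to 58.9 FPKM in Mbd3f/- and from 7.43 to 25.2 in Gatad2a-/-. At day 2 in these systems, 9 of the 17 regulators tested rose and 0 fell, against 9.97% and 8.19% of all genes. From day 4 to day 8 Esrra fell by 1.56 and Cycs by 1.8, while Cyct differed by 3.86. Whether Esrra has a part in the course of any member was not tested. Pdk2 and Pdk4, kinases that restrain pyruvate entry, fell at day 1 (-2.16 and -1.43). Of the 17 genes tested of their list, 5 rose and 0 fell at day 2 in the depleted systems, against 9.97% and 8.19% of all genes. In WT cells, from day 8 to iPSC, 43 of the 76 ribosomal protein genes rose and 1 fell, against 19.6% and 15.7% of all genes.

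ES cells gave a reference for the iPSC lines in Mbd3f/- and WT-1. In limma 0 of 84 members differed between ES and iPSC (0 higher and 3 lower at unadjusted p; 0% of all genes). The median difference was 0.23 in Mbd3f/- and -0.39 in WT-1, so the systems went opposite ways. Uqcr10, a small subunit of complex III, was at 190 FPKM in ES and 494 in iPSC of Mbd3f/-, and at 638 and 372 in WT-1. Ndufa4 was at 948 in ES and 554 in iPSC of Mbd3f/-, and at 545 and 1198 in WT-1. Without Mbd3f/- 4 members passed and without WT-1 1.

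Does Myc alter these genes? The Myc table has 1 library per condition apart from 2 si-Scramble MEF, so no test was run, and a member was counted when log2(FPKM + 1) differed by more than 1; 83 members and 16436 genes were compared. The 2 MEF libraries differed by -0.18 to 0.43 across members. The library labelled OSK+cMyc day 4, that labelled cMyc day 4 and that labelled OSK day 4 came from Mbd3f/- cells. Myc RNA was 3.16, 0.510 and 24.8 FPKM in these, so it was highest in the library labelled without added Myc. Sox2 was 312, 0.821 and 39.6, Pou5f1 (Oct4) 2.69, 0 and 36.1, and Klf4 16.1, 16.6 and 22.6. How reads of the added factors were counted was not tested, so these levels cannot check the labels. Directions drawn from these libraries rest on labels that the Myc level did not bear out. The siRNA to cMyc, nMyc and lMyc was given on days -3 and 0 to MEF with inducible Oct4, Klf4 and Sox2; at day 7 Myc was 11 FPKM with siMyc and 16.2 with si-Scramble, Mycn 0.927 and 1.47, and Mycl 3.31 and 1.03. At day 3 Myc was 29.2 with siMyc and 29.4 with the Myc inhibitor, which the labels do not name, against 30.5 and 26.5 in MEF.

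Against the library labelled OSK, the library labelled OSK+cMyc had 7 members over 1 higher and 11 over 1 lower (11.1% and 15.7% of all genes), with a median of -0.14. The higher were led by Uqcrq at 1.90, Atp5d at 1.53 and Ndufab1 at 1.42, and the lower by Ndufs5 at -1.72, Ndufa2 at -1.32 and Atp5h at -1.25. Uqcrq was 832 against 222 FPKM. Members of 1 complex therefore went both ways. Against the library labelled cMyc, 0 were higher and 1 lower, Cox4i2 at -1.04 (8.82% and 3.98% of all genes).

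At day 7, siMyc against si-Scramble left 0 members higher and 2 lower (3.12% and 4.17% of all genes), with a median of 0.03. These were Ndufa4l2 at -2.46 (33.0 against 186 FPKM) and Cox4i2 at -1.20 (12.4 against 29.8). Of the 10 fibroblast markers 7 were over 1 lower with siMyc (median -1.44), summing to 1894 FPKM against 5515; their part was not tested. Cyc1 was 141 FPKM with siMyc and 134 with si-Scramble. Against MEF, si-Scramble day 7 had 1 higher, Cox6b2 at 1.18, and 3 lower (7.22% and 5.43% of all genes). SiMyc day 3 had 0 higher and 2 lower, Ndufa4l2 at -4.84 and Cox4i2 at -2.17 (4.57% and 8.35% of all genes), with a median of 0.23. These comparisons and that of the inhibitor share the 2 MEF libraries. There was no si-Scramble library of day 3, so at day 3 the treatment and the days of reprogramming cannot be told apart.

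The library with the Myc inhibitor stood apart: 1 member was over 1 higher and 15 over 1 lower than MEF (10.1% and 10.3% of all genes), and 74 of 83 were below 0. The median was -0.63, against -0.06 over all genes, and -0.47 after quantile normalization. All 9 members of complex III were lower (median -0.75), with Cyc1 at 76.2 FPKM against 97.5 and 95.2 in MEF. The largest differences were Atp5k, a small membrane subunit of complex V, at -2.55, Cox7a1 at -2.07 and Atp5j2 at -1.85. Ndufa4 was 121 FPKM against 344 and 361. Cox6a2 was the exception, at 8.65 FPKM against 2.02 and 2.45 (1.58). Mitochondrial ribosomal protein genes in that library were over 1 lower in 13 of 76 and higher in 0. The fibroblast marker sum was 3660 FPKM, against 5033 and 5447 in MEF. Of 5 muscle and heart markers compared 4 were over 1 lower (median -2.46), and the whole list summed to 6.08 FPKM against 97.5 and 103. The part of these markers was not tested. This library was taken at day 3 of reprogramming and has no siRNA in its labels, while the MEF had si-Scramble. No control library of day 3 exists. The inhibitor, the days of reprogramming, the siRNA and the single library therefore cannot be told apart.

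**Figure D5:**
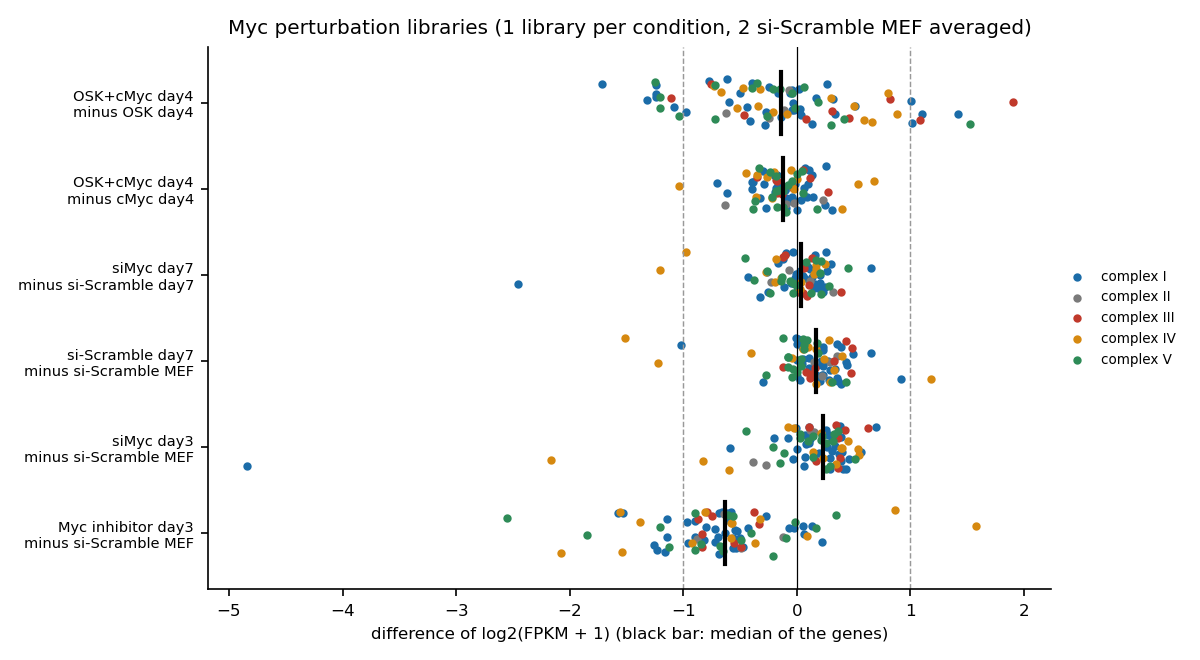
Difference in log2(FPKM + 1) of 83 genes for 6 comparisons of the Myc table, coloured by complex, with the median as a black bar and dashed lines at -1 and 1. The inhibitor comparison has the lowest median, -0.63, and Ndufa4l2 is the far left point in both siMyc comparisons.

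Levels in MEF show how far the separately normalized tables differ. Of 80 members with an FPKM of at least 1 in the MEF of all 5 tables, the highest table exceeded the lowest by over 2 times for 61 and over 5 times for 20, with a median ratio of 2.57. Cox7b was 106 to 374 FPKM in the MEF of the 4 systems and 2039 and 2292 in the MEF of the Myc table. Changes were therefore computed only within a table. The statements above on whether MEF and iPSC groups overlap set FPKM of different tables side by side. They therefore also hold these differences between tables.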

How the data were processed

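Poly(A) RNA of 43 mouse libraries was measured by RNA-seq. The authors deposited FPKM per gene in 5 tables; per the submitters' processing notes the tools were CASAVA 1.8.2, TopHat2 2.0.10 and Cufflinks 2.2.1, on mm10. The annotation release was not given in the sources used here, nor was strandedness of the counting. The kit named in the labels does not mark strand, so overlapping and near-identical genes are uncertain. A listed 0 can be a failed estimate.

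Groups came from the sample titles. With limma 3.58.1 in R 4.3.3, log2(FPKM + 1) was fitted with class by stage and the system as a block, using robust eBayes with a trend. A gene was kept where 2 or more libraries reached an FPKM of 1. The shared stages gave 24 libraries and 20305 genes with 10 degrees of freedom left for the spread; the daily depleted course gave 20, 20198 and 9, and the ES fit 26, 20410 and 11. The fits were tested on simulated data. Myc libraries were compared without a test.

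Members and lists were chosen with earlier results of these data known. Genes named are, per comparison, the highest and lowest of each complex, a set of core subunits and the paralogous subunits, and for other lists the 2 highest and 2 lowest; others were chosen after values were seen. Promoters are from RefSeq (GRCm38.p6), using the first start listed per symbol. Alternatives were no system block, quantile normalization, no filter, other pseudocounts, plain eBayes, only the stages compared and leaving out each system. The share of all FPKM taken by the members is not reported, since 1 gene takes up to 25.0% of the sum in Gatad2a-/- libraries.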

Additional observations from a re-analysis of the deposited data

Results flagged for a closer look

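Sdha from MEF to iPSC had 1 system far from the other 3: WT-2 at 0.73. Cox7b2 in the same comparison had Mbd3f/- far above the rest, at 4.36. Gaps of this size relative to the range arise by chance in about 1 in 20 groups of 4, and 25 groups were examined.

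Between depleted and WT systems, the change from MEF to day 8 differed for 4 genes in the test of the difference. Of these 1 was higher and 3 lower in the depleted systems, against 8.40% and 7.73% of all genes. The differences were 4.04 for Cox7b2, -1.38 for Uqcrh, -1.07 for Atp5e and -0.94 for Ndufa2, in log2(FPKM + 1). Cox7b2 was tested only because late depleted, iPSC and ES libraries, where it is high, brought it past the filter, so its call supports nothing.

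The median of all members in ES minus iPSC was 0.23 in Mbd3f/- and -0.39 in WT-1. The difference between these systems was not tested.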

How the results depend on the processing

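Counts here are members that passed in either direction. Here, and above where a system is left out, they stand without the share of all genes under the same setting. They show how far the calls move and are not read as results about the members. Without the system block they were 22 from MEF to iPSC, 3 at day 1 and, in the depleted systems, 0, 1, 2 and 2 at days 2, 4, 6 and 8. They were 2 from day 4 to day 8, 0 at day 8 in WT, 0 for the class difference at day 8 and 1 from day 8 to iPSC in WT. After quantile normalization they were 18 at day 1, 14, 20 and 11 at days 2, 4 and 6, 8 from day 4 to day 8, 7 for the class difference at day 8 and 13 from day 8 to iPSC in WT. With only the stages compared they were 14 at day 1, 2, 8 and 8 at days 2, 6 and 8, 5 from day 4 to day 8, 0 at day 8 in WT, 1 for the class difference and 2 from day 8 to iPSC in WT. Without a filter they were 10 from day 4 to day 8 and 1 at day 8 in WT, and 10 from day 4 to day 8 with eBayes without its trend and robust options.

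Leaving out each system gave 0 to 19, 1 to 35, 3 to 17 and 4 to 18 at days 2, 4, 6 and 8 in the depleted systems and 0 to 3 at day 8 in WT. It gave 0 to 7 for the class difference at day 8, 0 to 1 for that in iPSC, 0 to 4 from day 8 to iPSC in the depleted, 0 to 26 in WT and 0 to 4 between ES and iPSC. The median changed sign for day 2 in WT (-0.015 to 0.288; negative without WT-2), for the class difference at day 8 (-0.458 to 0.067; positive without WT-1) and for ES minus iPSC (-0.48 to 0.17; positive without WT-1). The daily course of the 2 depleted systems had no residual degrees of freedom without 1 of them, so it has no such value.

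With a pseudocount of 0.1, 2 members were over 1 lower in the library labelled OSK+cMyc than in that labelled cMyc, and 4 with siMyc than with si-Scramble at day 7. After quantile normalization, 2 were over 1 higher with the inhibitor. Of single genes under these settings, 334 values kept their call, 128 no longer passed and 0 changed sign. The cause was not tested. Read depth is unknown, so its limits cannot be given.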

Other observations

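The induced cassette holds Myc, yet Myc RNA ran differently in the courses. In Mbd3f/- it was 13.0 FPKM in MEF, 9.48 on day 1, 3.59 on day 2 and 0.0919 on day 4, while the respiratory genes were high. In Gatad2a-/- it was 19.4 in MEF, 55.4 on day 1, 44.4 on day 4 and 5.64 at the end of the course. The WT-1 libraries held 17.2 in MEF and 129, 130 and 116 on days 4, 6 and 8, and WT-2 19.6 in MEF and 6.15, 6.47 and 6.17. The day 1 rise of Cyc1, from 70.9 to 251 FPKM in Mbd3f/- and from 56.3 to 96.8 in Gatad2a-/-, thus accompanied lower Myc RNA in the first and higher Myc RNA in the second. Mycl was higher on day 1 in both, from 2.41 to 14.5 and from 1.26 to 11.9 FPKM. Although the cassette holds Oct4, its gene Pou5f1 was at 0.90 FPKM in MEF and 0.89 on day 1 in Mbd3f/-. How reads of the cassette were assigned to these genes was not tested, so Myc FPKM need not show the level of induced Myc.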
